A study of Mus musculus with 4 samples.

Results

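The Hippo pathway and YAP-TEAD genes are a set of 10 genes of 22574 in the count matrix, namely Yap1, Wwtr1, Tead1, Vgll4, Lats1, Lats2, Sav1, Amotl1, Amotl2 and Ajuba. They were chosen by name for their place in the pathway, with earlier results of these data known. Nuclei came from neonatal mouse hearts and were profiled by single-nucleus RNA sequencing after surgery at postnatal day 3, either myocardial infarction (MI), made by tying off a coronary artery, or Sham, and only nuclei of cardiomyocyte clusters were deposited. MI-WT and Sham-WT came from Nrf1fl/fl mice, in which loxP sites flank Nrf1 but no Cre is present. MI-KO and Sham-KO came from mice that also carried aMHC-Cre, a Cre recombinase whose promoter, that of alpha myosin heavy chain, works in cardiomyocytes, so other heart cells keep the gene. All mice therefore carried the floxed allele, and each library was made from a pool of 4 to 6 hearts, cut at the level of the ligature and collected the day after surgery. The strain field of the labels reads C57BL/6 for MI-WT, C57BL/7 for MI-KO, C57BL/8 for Sham-WT and C57BL/9 for Sham-KO, while the protocol text of the labels gives C57BL/6 for all mice.

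Hippo signalling limits organ growth. The kinases Stk3 and Stk4 with the scaffold Sav1 activate the kinases Lats1 and Lats2, which phosphorylate the coactivators YAP (Yap1) and TAZ (Wwtr1) and keep them out of the nucleus. Unphosphorylated YAP and TAZ bind TEAD proteins on DNA and switch on genes such as Ccn1, Ccn2 and Ankrd1, while Vgll4 competes for TEAD and angiomotins hold YAP in the cytoplasm. In the heart, active YAP is known to promote cardiomyocyte proliferation in development and in the newborn. YAP activity is set largely by phosphorylation and location of the protein, which RNA levels do not measure.

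The 4 libraries held 8585 nuclei and between 4984625 and 9106522 unique molecular identifiers (UMIs, each a captured RNA molecule), with 1 library per group. No difference below therefore has a replicate check, no test was made, and each ratio describes the libraries compared. Levels are counts per 1000000 UMIs of a library (CPM), ratios are log2 ratios of CPM, and the ranges in brackets are exact 95% intervals that cover counting error only. A gene was counted as past 1.5-fold where its log2 ratio was at least 0.58 in size, provided that both libraries together held at least 50 UMIs of it. The median nucleus held 3951 UMIs in MI-WT, 3959 in MI-KO, 3553.5 in Sham-WT and 2572 in Sham-KO, and the median share of UMIs from mitochondrial genes was 5.37%, 5.29%, 6.58% and 8.98%. Between libraries, 9 nucleus barcodes were shared. Cardiomyocyte markers summed to between 33752 and 37184 CPM with 8 of 8 detected in every library, but RNA of other cells was present. The scarcest mural marker, Myh11, had 2 to 10 UMIs per library and the most abundant, Abcc9, which cardiomyocytes also express, 1132 to 2545. Endothelial markers ran from 32 to 59 UMIs for Tie1 to between 136 and 279 for Cdh5, and the fibroblast collagen Col3a1 had 2042 to 3408. Nfe2l1, which encodes Nrf1, was at 47.4 CPM in MI-WT, 55.3 in MI-KO, 62.2 in Sham-WT and 50.5 in Sham-KO. Its log2 ratio was 0.22 (0.02 to 0.43) for MI-KO over MI-WT, against the label, and -0.30 (-0.51 to -0.09) for Sham-KO over Sham-WT. MI-KO and MI-WT below are therefore the libraries so labelled. The exons removed by Cre are not given in the sources used here, so RNA read outside them would not show the deletion.

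The first question was how the pathway genes differed between MI and Sham hearts. Amotl2, an angiomotin family member that binds YAP, and Ajuba, a LIM protein that inhibits the LATS kinases, were higher after MI by more than 1.5-fold in both genotype labels. These were 2 of the 10 genes, and 0 were lower by that much in either label. For MI-WT over Sham-WT, 10.2% of the genes over the minimum were past 1.5-fold higher and 13.7% lower; for MI-KO over Sham-KO the shares were 11.7% and 10.8%. Higher in both labels were 7.29% of genes, and lower in both were 6.36%. The ratios of MI-WT over Sham-WT and of MI-KO over Sham-KO share no library. The other 8 genes stayed within 1.5-fold over all nuclei, with the coactivators close to their Sham levels.

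**Figure D1:**
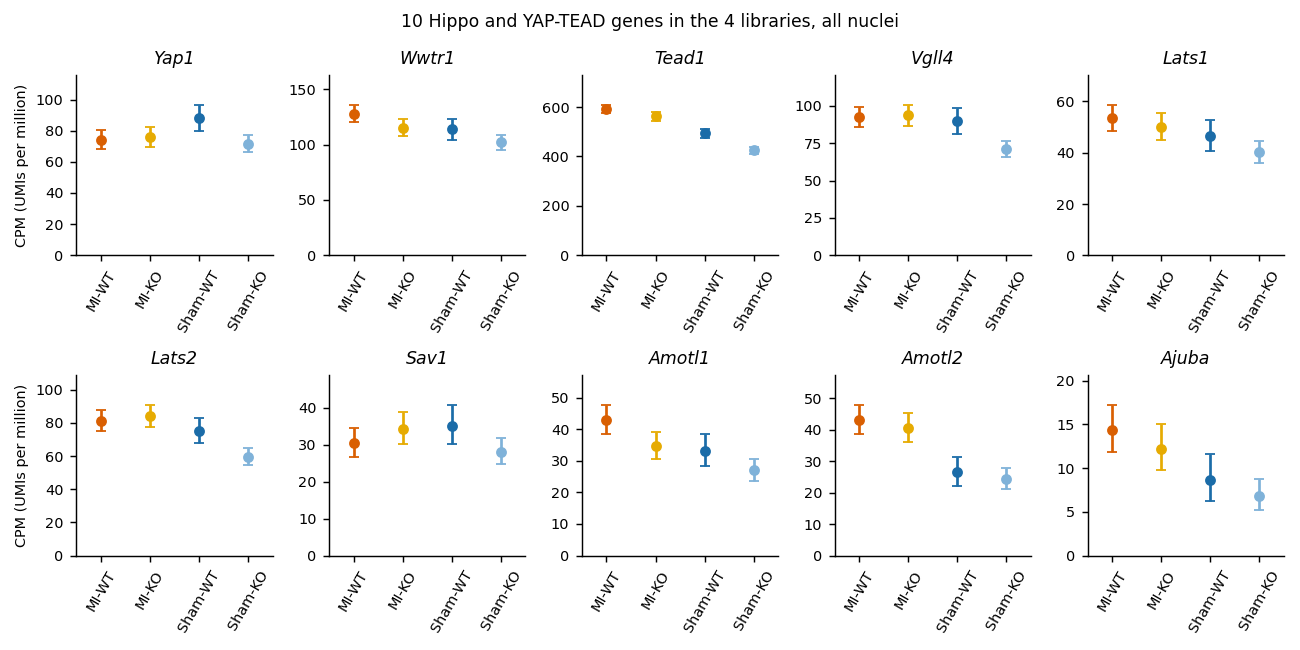
Levels of the 10 genes in CPM (vertical axes, starting at 0) in the libraries MI-WT, MI-KO, Sham-WT and Sham-KO over all nuclei. Points are single libraries and bars are exact 95% Poisson intervals. Amotl2 sits at 43.1 and 40.5 CPM in the MI libraries and at 26.5 and 24.4 CPM in the Sham libraries.

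Amotl2 was at 43.1 CPM (38.7 to 47.9) in MI-WT, 40.5 (36.0 to 45.4) in MI-KO, 26.5 (22.2 to 31.4) in Sham-WT and 24.4 (21.3 to 27.8) in Sham-KO. The MI libraries were the higher ones in both labels, and the intervals of MI and Sham did not overlap. The log2 ratio of Amotl2 was 0.70 (0.41 to 1.0) for MI-WT over Sham-WT and 0.73 (0.48 to 0.99) for MI-KO over Sham-KO. Behind these values stood 343, 298, 132 and 222 UMIs in the same order of libraries, and no nucleus held more than 3 of them.

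Ajuba was the least abundant of the 10 genes in UMIs, with 114 in MI-WT, 90 in MI-KO, 43 in Sham-WT and 62 in Sham-KO. Its levels were 14.3 CPM (11.8 to 17.2), 12.2 (9.83 to 15.0), 8.63 (6.24 to 11.6) and 6.81 (5.22 to 8.73). The interval of MI-WT did not overlap those of the Sham libraries, while the interval of MI-KO overlapped that of Sham-WT. The log2 ratio of Ajuba was 0.73 (0.21 to 1.27) for MI-WT over Sham-WT and 0.84 (0.36 to 1.34) for MI-KO over Sham-KO, so both intervals lay above 0 and both reached below 1.5-fold. With each nucleus thinned to 1000 UMIs, Ajuba had too few UMIs for either ratio.

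Amotl1, the other angiomotin of the set, was at 42.9 CPM (38.4 to 47.7) in MI-WT, 34.6 (30.5 to 39.2) in MI-KO, 33.1 (28.2 to 38.6) in Sham-WT and 27.0 (23.7 to 30.6) in Sham-KO. MI-WT was the highest, with an interval that only just overlapped those of MI-KO and Sham-WT and lay above that of Sham-KO. Its MI over Sham ratios were 0.37 (0.10 to 0.65) for the WT label and 0.36 (0.10 to 0.62) for the KO label.

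Tead1, the TEAD factor with the most UMIs in these nuclei, was at 592 CPM (576 to 610) in MI-WT, 562 (545 to 580) in MI-KO, 493 (474 to 513) in Sham-WT and 424 (411 to 438) in Sham-KO. The intervals of MI and Sham libraries did not overlap. With 2457 to 4713 UMIs per library, counting error was small. Over all nuclei the ratios were 0.27 (0.19 to 0.34) for MI-WT over Sham-WT and 0.41 (0.34 to 0.47) for MI-KO over Sham-KO, both short of 1.5-fold.

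Yap1 was at 73.9 CPM (68.1 to 80.1) in MI-WT, 75.7 (69.5 to 82.2) in MI-KO, 88.1 (80.0 to 96.7) in Sham-WT and 71.4 (66.0 to 77.1) in Sham-KO. The 3 libraries other than Sham-WT overlapped, and Sham-WT, the highest, only just overlapped the MI libraries. Its ratio was -0.25 (-0.43 to -0.07) for MI-WT over Sham-WT and 0.08 (-0.08 to 0.25) for MI-KO over Sham-KO. Wwtr1, which encodes TAZ, was at 128 CPM (120 to 136), 115 (108 to 123), 114 (105 to 124) and 102 (95.5 to 109) in MI-WT, MI-KO, Sham-WT and Sham-KO. MI-KO and Sham-WT held nearly equal Wwtr1 levels, and the MI over Sham ratios were 0.17 (0.02 to 0.32) and 0.18 (0.04 to 0.31) for the WT and KO labels. Neither coactivator came near 1.5-fold after MI in the sums over all nuclei.

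Vgll4, the TEAD cofactor that opposes YAP, was at 92.4 CPM (85.8 to 99.3) in MI-WT, 93.6 (86.8 to 101) in MI-KO, 89.7 (81.6 to 98.4) in Sham-WT and 71.0 (65.7 to 76.7) in Sham-KO. Only Sham-KO stood apart, below the other 3, whose intervals overlapped. The MI over Sham ratio of Vgll4 was 0.04 (-0.13 to 0.22) for the WT label and 0.40 (0.24 to 0.55) for the KO label.

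Lats2, a kinase that phosphorylates YAP and is itself a known YAP target, was also lowest in Sham-KO, at 81.4 CPM (75.3 to 88.0), 84.0 (77.5 to 90.9), 75.0 (67.6 to 83.0) and 59.6 (54.7 to 64.9) in MI-WT, MI-KO, Sham-WT and Sham-KO. Its MI over Sham ratio was 0.12 (-0.07 to 0.31) for the WT label and 0.49 (0.33 to 0.66) for the KO label. Lats2 overlaps the predicted coding gene Gm49361 on the same strand, so its counts are uncertain. The sister kinase Lats1 was at 53.4 CPM (48.5 to 58.7), 50.1 (45.2 to 55.5), 46.5 (40.7 to 52.9) and 40.2 (36.2 to 44.5), and its ratios were 0.20 (-0.04 to 0.44) and 0.32 (0.11 to 0.53). Neighbouring libraries in the order of Lats1 levels overlapped throughout.

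Sav1, the scaffold of the upstream kinases, was at 30.4 CPM (26.7 to 34.5) in MI-WT, 34.2 (30.1 to 38.7) in MI-KO, 35.1 (30.1 to 40.7) in Sham-WT and 28.1 (24.8 to 31.8) in Sham-KO. All 4 intervals overlapped. The ratio of Sav1 was -0.21 (-0.49 to 0.08) for MI-WT over Sham-WT and 0.28 (0.03 to 0.54) for MI-KO over Sham-KO. Over the 10 genes the median ratio was 0.18 for the WT label with 8 above 0, and 0.38 for the KO label with 10 above 0, beside medians of -0.06 and 0.04 over all genes compared.

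**Figure D2:**
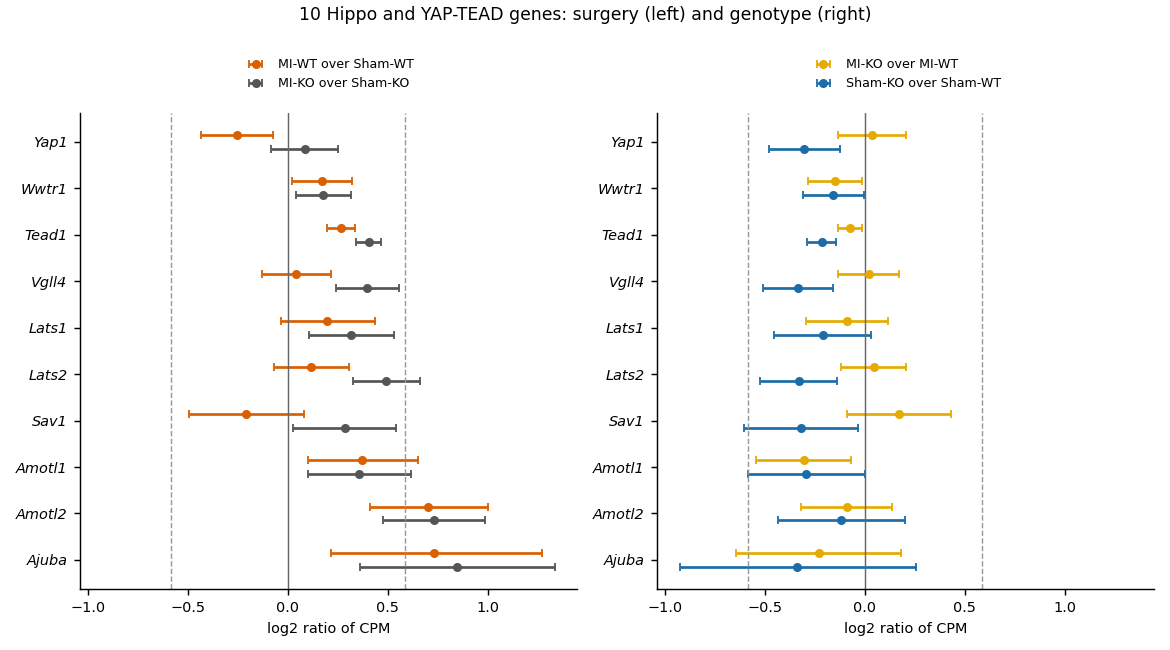
Log2 ratios of CPM (horizontal axes) of the 10 genes for MI over Sham in each genotype label (left) and for the KO label over the WT label in each surgery (right), with exact 95% intervals for counting error. The dashed lines mark 1.5-fold. Amotl2 and Ajuba lie past the dashed line on the left for both labels, and no gene does so on the right.

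Promoter sequence was available for most of the genes. The TEAD motif CATTCC, read also on the other strand as GGAATG, was searched alone with no other motif. It was looked for in RefSeq promoter windows of GRCm38.p6, which run from 250 bases before to 50 after a RefSeq start of a gene. Of the 10 genes, 9 had a window and 7 of these held a match: Yap1, Wwtr1, Vgll4, Lats2, Sav1, Amotl2 and Ajuba. Lats1 and Amotl1 held none, and Tead1 had no window. Of all 27025 genes with a window, 16.6% held a match, and of the 10060 with a window and 50 or more UMIs over the 4 libraries 14.6% did. A match is a run of letters in this window and not a shown binding site. A RefSeq start can lie inside the span of the gene in GENCODE M21. This held for the windows of Amotl1, Amotl2 and Ankrd1, where that span begins at 14645056, 102716672 and 36120099 on the strand of the gene. The result for these genes concerns the window used alone. The 250 bases before the start of Amotl2 and Ajuba are printed because these genes were past 1.5-fold after MI. Printed with them are those of Amotl1, the angiomotin without a match in its window, and Ankrd1, a target with high counts. Capitals mark the motif, and each runs 5′ to 3′ on the strand of the gene.
Amotl2 (chr9:102717554-102717803, plus strand): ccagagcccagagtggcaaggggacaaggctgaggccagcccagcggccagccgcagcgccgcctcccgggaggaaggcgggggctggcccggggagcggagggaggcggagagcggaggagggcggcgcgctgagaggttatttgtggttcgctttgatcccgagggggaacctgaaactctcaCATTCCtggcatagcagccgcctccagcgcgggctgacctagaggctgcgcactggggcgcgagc
Ajuba (chr14:54577662-54577911, minus strand): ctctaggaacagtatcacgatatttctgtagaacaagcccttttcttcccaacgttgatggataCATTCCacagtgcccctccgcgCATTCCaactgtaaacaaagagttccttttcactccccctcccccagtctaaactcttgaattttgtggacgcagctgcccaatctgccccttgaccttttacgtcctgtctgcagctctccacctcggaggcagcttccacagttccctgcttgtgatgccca
Amotl1 (chr9:14615001-14615250, minus strand): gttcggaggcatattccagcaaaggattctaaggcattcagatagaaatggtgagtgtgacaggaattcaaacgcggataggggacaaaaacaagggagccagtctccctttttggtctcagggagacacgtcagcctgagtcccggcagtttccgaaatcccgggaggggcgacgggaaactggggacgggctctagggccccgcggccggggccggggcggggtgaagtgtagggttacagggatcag
Ankrd1 (chr19:36119845-36120094, minus strand): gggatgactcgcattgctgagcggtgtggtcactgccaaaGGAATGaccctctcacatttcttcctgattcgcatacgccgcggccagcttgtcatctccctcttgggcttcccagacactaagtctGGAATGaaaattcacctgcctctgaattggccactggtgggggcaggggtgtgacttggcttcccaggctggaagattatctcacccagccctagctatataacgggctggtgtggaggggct

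The match of Amotl2 began 65 bases before the start, the matches of Ajuba 186 and 164 bases before it, and those of Ankrd1 210 and 123 bases before it. In Yap1 it began 141 bases, in Vgll4 82 bases and in Sav1 106 bases before the start. The match of Lats2 lay in 1 of its windows, 4 bases after the start. Wwtr1 had 2 windows, with matches 136 and 170 bases before their starts.

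The list of 20 known YAP-TEAD targets held the largest MI over Sham ratios of the pathway. This list was also chosen with earlier results of these data known. Of its genes, 16 had 50 or more UMIs in both comparisons, and 11 of these were past 1.5-fold higher in both genotype labels and 0 lower, beside the 7.29% and 6.36% of all genes given above. The 11 were Ccn1, Ccn2, Ankrd1, Axl, Igfbp3, Crim1, Nt5e, Dock5, Arhgef17, Tgfb2 and Myof. The median ratio of the list was 0.92 for the WT label and 1.13 for the KO label, and all 16 lay above 0 in each.

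**Figure D3:**
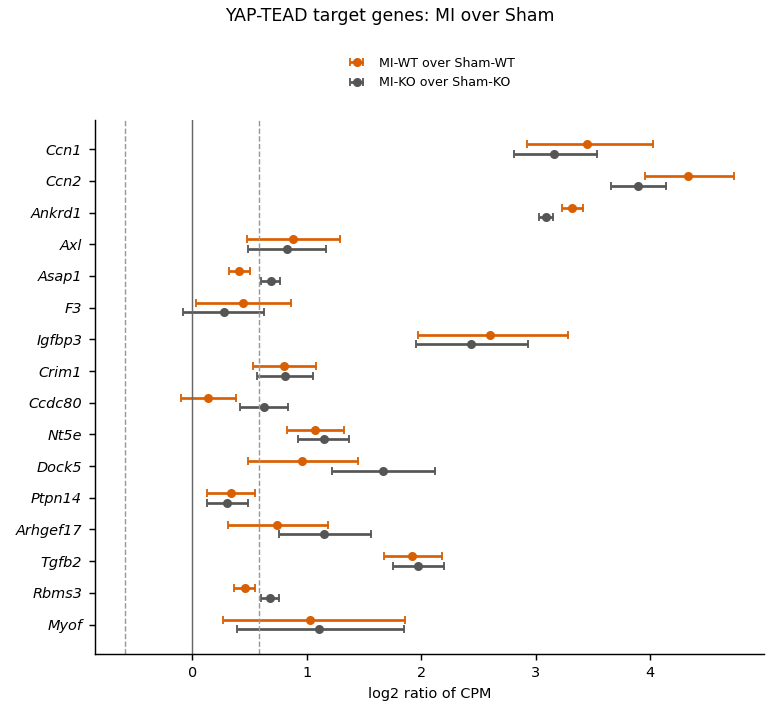
Log2 ratios of CPM for MI over Sham (horizontal axis) of the 16 YAP-TEAD targets with enough UMIs, for the WT label (orange) and the KO label (grey), with exact 95% intervals for counting error. Dashed lines mark 1.5-fold. Ccn1, Ccn2 and Ankrd1 lie beyond a ratio of 3 in both labels.

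Ccn2, a secreted matrix protein long used as a YAP readout, was at 238 CPM in MI-WT, 260 in MI-KO, 11.8 in Sham-WT and 17.5 in Sham-KO. Its ratio was 4.33 (3.96 to 4.73) for the WT label and 3.89 (3.66 to 4.14) for the KO label. Ccn1, its close relative, was at 67.9, 71.7, 6.22 and 8.02 CPM in the same order, with ratios of 3.45 (2.93 to 4.02) and 3.16 (2.81 to 3.54). Ankrd1, a stress-responsive protein of the sarcomere and nucleus, had the most UMIs of the list.

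Ankrd1 was at 2060 CPM in MI-WT, 2157 in MI-KO, 207 in Sham-WT and 253 in Sham-KO. Both MI libraries were far above both Sham libraries, and the ratios were 3.32 (3.23 to 3.41) and 3.09 (3.03 to 3.15). Tgfb2, a growth factor, had ratios of 1.92 (1.67 to 2.18) and 1.97 (1.75 to 2.20). Rbms3, an RNA-binding protein gene with the second highest UMI count of the list, had ratios of 0.46 (0.37 to 0.55) for the WT label and 0.68 (0.60 to 0.76) for the KO label. Asap1 at 0.68 and Ccdc80 at 0.62 were also past 1.5-fold for the KO label, at 0.41 and 0.14 for the WT label. Several of these targets also answer to other pathways, so their levels do not measure YAP alone.

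Igfbp3, which binds insulin-like growth factors, had ratios of 2.60 (1.97 to 3.28) and 2.43 (1.96 to 2.93). Nt5e, an enzyme of the cell surface that makes adenosine, had 1.07 (0.83 to 1.33) and 1.15 (0.93 to 1.37). Axl, a receptor tyrosine kinase, had 0.88 (0.48 to 1.29) and 0.83 (0.49 to 1.17), and Crim1 had 0.80 (0.53 to 1.08) and 0.81 (0.57 to 1.06). Dock5 had 0.96 (0.49 to 1.45) and 1.66 (1.22 to 2.12), Arhgef17 0.74 (0.31 to 1.18) and 1.15 (0.75 to 1.56), and Myof 1.03 (0.27 to 1.86) and 1.11 (0.39 to 1.85). Of the 13 targets with a promoter window, 5 held the TEAD motif: Ankrd1, Axl, Ccn1, Crim1 and Ptpn14.

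Of 16 other genes of the upstream and core kinase module, 15 had enough UMIs. Past 1.5-fold higher in both labels were 2, Wwc1 and Wwc2, with 0 lower. Over all genes, 7.29% were higher in both labels and 6.36% lower. Wwc2, a scaffold that promotes LATS activation, was at 322 CPM in MI-WT, 314 in MI-KO, 210 in Sham-WT and 184 in Sham-KO, with ratios of 0.61 (0.51 to 0.72) and 0.77 (0.68 to 0.86). Its relative Wwc1 had only 13 to 50 UMIs per library and ratios of 1.08 (0.17 to 2.10) and 1.63 (0.85 to 2.46). Tnik, the kinase with the most UMIs of this list, had 0.43 (0.35 to 0.52) and 0.57 (0.50 to 0.65).

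Of 8 other inhibitors and adaptors, among them Ptpn14, which is also in the list of targets, 7 were compared. Past 1.5-fold in both labels were 0, beside 7.29% of all genes higher and 6.36% lower. Wtip, a relative of Ajuba, had ratios of 0.37 (0.06 to 0.68) and 0.64 (0.36 to 0.92), past 1.5-fold in the KO label. Strn3 and Strn, subunits of the phosphatase complex that opposes the upstream kinases, had 0.27 and 0.08 for the WT label and 0.28 and 0.47 for the KO label.

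Among the other TEAD and VGLL genes, Tead3 had ratios of 0.39 (0.11 to 0.67) and 0.79 (0.53 to 1.05), and Tead2 of -0.70 (-1.13 to -0.28) and -0.49 (-0.86 to -0.12). Tead4 was scarce, with 24 UMIs in MI-WT, 44 in MI-KO, 13 in Sham-WT and 13 in Sham-KO. Its ratio was 2.07 (1.15 to 3.08) for MI-KO over Sham-KO, and for the WT label its 37 UMIs were under the minimum. The 4 TEAD genes thus did not share a direction after MI.

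Markers of other cells were also compared between MI and Sham. The summed level of 7 of 7 detected myeloid markers was 132 CPM in MI-WT and 86.7 in MI-KO against 63.0 in Sham-WT and 43.5 in Sham-KO. That of 5 of 5 epicardial markers was 56.3 and 49.9 against 24.5 and 25.1. Single markers differed from these sums. Epicardial Krt19 was at 21.7 and 22.8 CPM against 4.41 and 4.06, but Wt1 at 2.26 and 3.40 against 2.61 and 2.96. Myeloid Csf1r was highest in Sham-WT, at 8.43 CPM, with 7.16 in MI-WT. Endothelial markers (7 of 7) summed to between 108 and 125 CPM and fibroblast markers (7 of 7) to between 986 and 1165 CPM. The sum of the mural markers (6 of 6) was lower in the MI libraries, at 243 and 250 CPM against 403 and 343 in Sham-WT and Sham-KO. Most of it was Abcc9, which cardiomyocytes also express, at 152 and 154 CPM against 339 and 279. Rgs5 was also lower after MI, at 13.7 and 15.5 CPM against 20.7 and 22.1. Cspg4 was higher, at 62.3 and 65.5 CPM against 31.9 and 25.7, and so was Pdgfrb, at 7.42 and 10.6 against 6.22 and 6.81. Red blood cell genes (5 of 5) summed to 4520, 2123, 3296 and 2318 CPM in MI-WT, MI-KO, Sham-WT and Sham-KO. The part of such RNA in the ratios of Amotl2, Ajuba and the targets was not tested.

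The second question was whether the genes differed between genotype labels. Over all nuclei after MI, 0 of the 10 genes were past 1.5-fold between MI-KO and MI-WT in either direction. Of all genes, 1.89% were higher and 1.73% lower. The ratios of the 10 genes ran from -0.31 (-0.55 to -0.07) for Amotl1 to 0.17 (-0.09 to 0.43) for Sav1. Their median was -0.08 beside 0.03 over all genes, and 4 of 10 lay above 0. Besides Amotl1, the intervals of Wwtr1 at -0.15 (-0.28 to -0.02) and Tead1 at -0.08 (-0.14 to -0.02) lay below 0. Yap1 had 0.03 (-0.14 to 0.20), Vgll4 0.02 (-0.13 to 0.17), Lats1 -0.09 (-0.30 to 0.11), Lats2 0.04 (-0.12 to 0.21), Amotl2 -0.09 (-0.32 to 0.14) and Ajuba -0.23 (-0.64 to 0.18).

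The targets were likewise close between MI-KO and MI-WT over all nuclei, and counts within populations are given further below. Of 16 compared, 0 were past 1.5-fold, beside 1.89% of all genes higher and 1.73% lower, and the median ratio was -0.06. Ankrd1 had 0.07 (0.03 to 0.10), Ccn2 0.12 (0.03 to 0.22), Tgfb2 -0.26 (-0.40 to -0.11) and Rbms3 0.05 (-0.02 to 0.12). Of the 25 other genes of the pathway compared, Tead4 alone was past 1.5-fold, at 0.99 (0.24 to 1.77) with 44 UMIs in MI-KO and 24 in MI-WT. In the core and inhibitor lists, the genes with the most UMIs were Tnik at 0.00 (-0.07 to 0.07) and Wwc2 at -0.04 (-0.12 to 0.05), and Strn3 at -0.11 (-0.19 to -0.04) and Strn at 0.09 (-0.04 to 0.21). Tead3 had -0.01 (-0.23 to 0.22) and Tead2 0.16 (-0.26 to 0.58).

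After Sham surgery, all 10 genes had a ratio below 0 for Sham-KO over Sham-WT, from -0.34 for Vgll4 and Ajuba to -0.12 for Amotl2, and 0 were past 1.5-fold. Of all genes, 3.96% were past 1.5-fold higher and 3.08% lower. The median of the 10 was -0.30, beside -0.09 over all genes, and with the trimmed mean of M-values (TMM) as the scaling these medians were -0.20 and 0.01. The interval lay below 0 for Yap1 at -0.30 (-0.48 to -0.13), Wwtr1 at -0.16 (-0.31 to -0.01), Tead1 at -0.22 (-0.29 to -0.14), Vgll4 at -0.34 (-0.51 to -0.16), Lats2 at -0.33 (-0.52 to -0.14) and Sav1 at -0.32 (-0.60 to -0.03). Lats1 had -0.21 (-0.45 to 0.03), Amotl1 -0.29 (-0.58 to 0.00), Amotl2 -0.12 (-0.44 to 0.20) and Ajuba -0.34 (-0.93 to 0.25). Sham-KO was also the library with the fewest UMIs per nucleus and the highest mitochondrial share, and the part of these in the lower levels was not tested. With each nucleus thinned to 1000 UMIs, the median of the 9 genes left over the minimum was -0.21, and Amotl2 had 0.34 (-0.33 to 1.05).

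Within populations the lower levels in Sham-KO did not hold throughout. In CM4, 5 of 9 genes compared lay above 0 for Sham-KO over Sham-WT, with a median of 0.01. Past 1.5-fold were Tead1, higher at 0.77 (0.37 to 1.19) from 211 and 67 UMIs, and Amotl1, lower at -0.97 from 17 and 18 UMIs. Of 6811 genes compared in CM4, 1357 were past 1.5-fold higher and 733 lower. In CM5, 2 of the 9 genes compared lay above 0 and the median was -0.37. Past 1.5-fold higher was 1, Lats1 at 0.88 (-0.16 to 2.06) from 36 and 10 UMIs. Lower by that much were 3, Yap1, Amotl1 and Amotl2. Of 6325 genes compared in CM5, 762 were past 1.5-fold higher and 873 lower. In CM1, 1 of 10 lay above 0 and the median was -0.30.

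For Sham-KO over Sham-WT, of 15 targets compared, 0 were past 1.5-fold higher and 1 lower, Dock5 at -0.63 (-1.20 to -0.06), while Ccn2 had 0.56 (0.12 to 1.02), Ankrd1 0.29 (0.19 to 0.40) and Rbms3 -0.17 (-0.27 to -0.07). This count turned with the scaling: with TMM, 1 target was past 1.5-fold higher, Ccn2, and 0 lower. In CM1 alone, with the same minimum, 2 were higher, Ccn1 and Ccn2, and 1, Dock5, lower. Of 23 other genes of the pathway compared, 0 were past 1.5-fold, beside 3.96% of all genes higher and 3.08% lower. Tnik had -0.14 and Wwc2 -0.19, Strn3 -0.12 and Strn -0.31, and Tead3 -0.41 and Tead2 -0.06.

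The third question was how the genes differed between cardiomyocyte populations, which the authors labelled CM1 (holding CM1 and CM3), CM2, CM4 and CM5. CM1 made up 70.6% to 78.7% of nuclei, CM5 16.9% and 19.2% in MI-WT and MI-KO but 6.33% and 7.03% in Sham-WT and Sham-KO, CM4 6.39% to 13.7% and CM2 1.92% to 3.73%. Populations were made by clustering these nuclei on their expression, so a ratio to CM1 is a description. In a sum over all nuclei, more nuclei of a population and more RNA per nucleus cannot be told apart, so values within populations are given here.

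**Figure D4:**
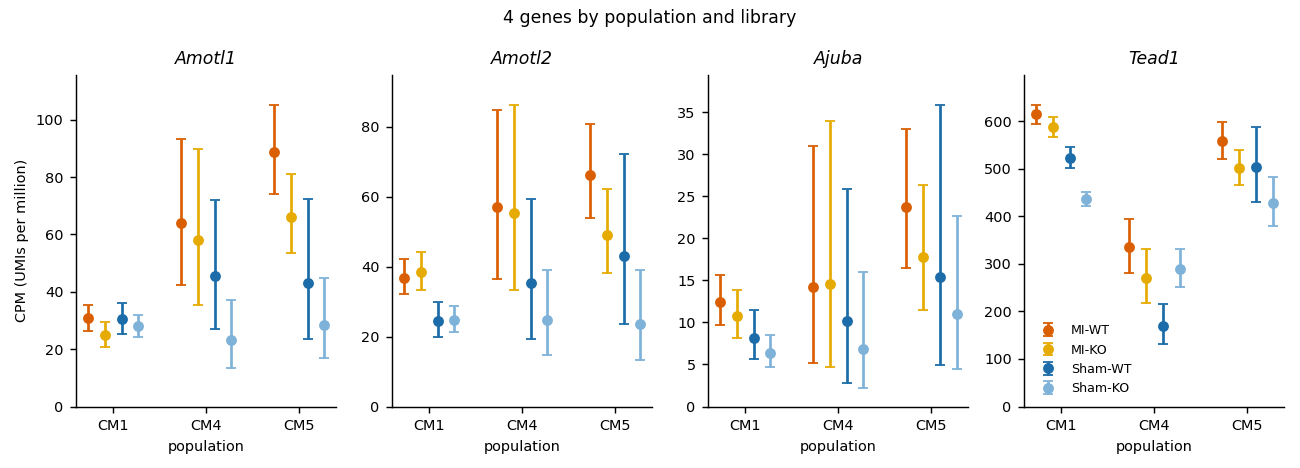
Levels of Amotl1, Amotl2, Ajuba and Tead1 in CPM (vertical axes, starting at 0) in the populations CM1, CM4 and CM5 of each library, with exact 95% Poisson intervals. Amotl1 lies at 88.7 and 66.2 CPM in CM5 of MI-WT and MI-KO and between 24.8 and 30.7 CPM in CM1 of all 4 libraries, and Tead1 is lower in CM4 than in CM1 in each library.

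The MI over Sham ratio of Amotl1 was past 1.5-fold in CM5 in both labels and near 0 in CM1, a difference that was not tested. In CM1 it was at 30.7 CPM in MI-WT, 24.8 in MI-KO, 30.4 in Sham-WT and 27.9 in Sham-KO, with MI over Sham ratios of 0.02 (-0.32 to 0.36) for the WT label and -0.17 (-0.50 to 0.15) for the KO label. In CM5 it was at 88.7, 66.2, 43.0 and 28.3 CPM in the same order, with ratios of 1.04 (0.24 to 1.95) and 1.23 (0.49 to 2.04). The CM5 values of the Sham libraries rested on 14 and 18 UMIs. In CM4 Amotl1 was at 64.1, 58.2, 45.5 and 23.3 CPM, with ratios of 0.49 (-0.42 to 1.44) for the WT label and 1.32 (0.32 to 2.35) for the KO label. The ratio of Amotl1 in CM5 over CM1 was 1.53 (1.19 to 1.86) in MI-WT and 1.42 (1.02 to 1.81) in MI-KO, against 0.50 (-0.41 to 1.30) in Sham-WT and 0.02 (-0.76 to 0.72) in Sham-KO.

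Amotl2 was higher after MI also within CM1, at 36.9 CPM in MI-WT and 38.5 in MI-KO against 24.6 in Sham-WT and 24.8 in Sham-KO. The ratios of Amotl2 in CM1 were 0.59 (0.24 to 0.94) and 0.63 (0.34 to 0.93), and those of Ajuba 0.60 (-0.01 to 1.23) and 0.74 (0.16 to 1.33). In CM1, 2 of the 10 genes were past 1.5-fold higher in MI-WT over Sham-WT, where 10.4% of genes were higher and 14.6% lower. In MI-KO over Sham-KO 3 were, Lats2 at 0.60 (0.41 to 0.79) being the other, where 12.1% were higher and 12.8% lower. In each, 0 were lower. Here and below, the minimum was 20 UMIs over both sums. Of the targets, 7 of 17 compared were past 1.5-fold higher in CM1 for the WT label and 0 lower, and 13 of 18 higher for the KO label and 1, Gadd45a, lower.

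In CM5, 4 of the 10 genes were past 1.5-fold higher in MI-WT over Sham-WT and 0 lower, where counts are low and 22.7% of genes were higher and 24.3% lower. They were Lats1 at 1.15 (0.21 to 2.26), Amotl1, Amotl2 at 0.62 (-0.19 to 1.55) and Ajuba at 0.62 (-0.73 to 2.33). In MI-KO over Sham-KO 5 were higher and 0 lower, where 25.5% of genes were higher and 18.9% lower. They were Yap1 at 0.92 (0.30 to 1.60), Vgll4 at 0.78 (0.30 to 1.29), Amotl1, Amotl2 at 1.06 (0.24 to 1.97) and Ajuba at 0.69 (-0.56 to 2.15). Yap1 in CM5 was at 75.8 CPM in MI-WT, 77.6 in MI-KO and 89.2 in Sham-WT but 40.9 in Sham-KO, from 26 UMIs, and its ratio for Sham-KO over Sham-WT was -1.12 (-1.95 to -0.31). Of the targets in CM5, 11 of 16 were past 1.5-fold higher after MI for the WT label and 2, F3 and Ccdc80, lower, and 9 of 14 were higher for the KO label and 1, Ccdc80, lower.

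In CM4, 9 of the 10 genes were compared between MI and Sham, and the genotype labels differed in which were past 1.5-fold, though the difference was not tested. In MI-WT over Sham-WT 5 were higher and 0 lower, where 28.5% of genes were higher and 16% lower. They were Wwtr1 at 0.91 (0.24 to 1.60), Tead1 at 0.98 (0.55 to 1.42), Vgll4 at 0.78 (-0.12 to 1.72), Lats2 at 0.86 (-0.09 to 1.86) and Amotl2 at 0.69 (-0.32 to 1.75). In MI-KO over Sham-KO 2 were higher, Amotl1 and Amotl2 at 1.17 (0.16 to 2.18), and 0 lower, where 17.7% of genes were higher and 19.7% lower. Tead1 in CM4 was at 335 CPM in MI-WT and 169 in Sham-WT, but at 271 in MI-KO and 289 in Sham-KO, a ratio of -0.09 (-0.46 to 0.26) for the KO label.

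Ajuba was the only one of the 10 genes past 1.5-fold higher in CM5 than in CM1 in all 4 libraries, where 0.704% of genes were higher and 1.29% lower. Its ratios were 0.93 (0.31 to 1.53) in MI-WT, 0.73 (-0.01 to 1.44) in MI-KO, 0.91 (-0.80 to 2.27) in Sham-WT and 0.78 (-0.61 to 1.94) in Sham-KO, so only that of MI-WT had an interval above 0. With each nucleus thinned to 1000 UMIs, Ajuba was no longer counted. Of the targets, 15 were compared and 5 were past 1.5-fold higher in CM5 in all 4 libraries: Ccn1, Ccn2, Ankrd1, Nt5e and Tgfb2. Ankrd1 had CM5 over CM1 ratios of 1.48 in MI-WT, 1.40 in MI-KO, 2.25 in Sham-WT and 2.22 in Sham-KO, and Tgfb2 had 2.45, 2.25, 1.59 and 1.55.

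Tead1 was lower in CM4 than in CM1 by more than 1.5-fold in all 4 libraries. It was at 335 CPM in CM4 and 614 in CM1 of MI-WT, 271 and 588 in MI-KO, 169 and 523 in Sham-WT, and 289 and 436 in Sham-KO. The ratios were -0.88 (-1.13 to -0.63), -1.12 (-1.43 to -0.82), -1.63 (-2.0 to -1.28) and -0.59 (-0.80 to -0.39), the last just past the limit. Tead1 was the only one of the 10 genes to do so and 0 were higher, where 9.81% of genes were higher and 7.03% lower. Without the mitochondrial genome in the totals, 0 of the 10 genes were past the limit in all 4 libraries. The median over all genes in CM4 over CM1 lay between -0.31 and -0.04 by library.

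CM4 also held more RNA of other cells. Fibroblast markers (7 of 7) summed to between 2011 and 2480 CPM in CM4 and between 905 and 1048 in CM1, and endothelial markers (7 of 7) to between 282 and 448 against 79.0 and 109, and the part of such RNA in the CM4 values was not tested. Wwtr1 in CM4 was at 138 CPM in MI-WT, 72.7 in MI-KO, 73.3 in Sham-WT and 107 in Sham-KO. Its ratio for MI-KO over MI-WT was -0.92 (-1.66 to -0.22) from 25 and 58 UMIs. Of 9 genes compared, it alone was past 1.5-fold, and 1 lay above 0. Of 13 targets, Asap1, Igfbp3, Crim1 and Nt5e were past 1.5-fold lower and Ccdc80 higher. Of all 5686 genes compared in CM4, 1095 were lower and 702 higher. For MI-KO over MI-WT in CM1 and CM5, 0 of the 10 genes were past 1.5-fold. Of the targets, Gadd45a was lower in CM1 and Myof in CM5. In CM2, 0 of 7 genes were, and the targets Ccdc80 and Nt5e were higher. Amotl1 in CM4 had CM4 over CM1 ratios of 1.06 (0.42 to 1.65) in MI-WT and 1.23 (0.47 to 1.92) in MI-KO, against 0.58 (-0.22 to 1.30) in Sham-WT and -0.26 (-1.07 to 0.45) in Sham-KO.

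Among the targets, 3 of 15 compared were past 1.5-fold higher in CM4 than in CM1 in all 4 libraries, Ccn1, Ccn2 and Axl, and 0 lower, beside the 9.81% of all genes higher and 7.03% lower. For Axl, the CM4 over CM1 ratios were 2.02 in MI-WT, 1.53 in MI-KO, 1.48 in Sham-WT and 0.91 in Sham-KO. In CM2, 0 of the 10 genes were past 1.5-fold of CM1 in all 4 libraries, where 4.28% of genes were higher and 0.371% lower. This population held only 27 to 124 nuclei per library, and Ajuba had 0 UMIs in CM2 of Sham-WT. For MI-WT over Sham-WT in CM2, 5 genes were compared. Past 1.5-fold were Tead1, higher at 0.59 from 186 and 54 UMIs, and Vgll4, lower at -0.71 from 14 and 10 UMIs. For MI-KO over Sham-KO, 7 were compared. Tead1, at 0.68 from 212 and 185 UMIs, and Sav1 were higher and 0 lower. Of all 3500 and 5638 genes compared in CM2, 590 and 772 were higher and 572 and 862 lower.

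Per kilobase of gene span in MI-WT, Tead1 had 2.60 CPM per kb and Amotl2 2.57, the highest of the 10 genes. Lats1 had 1.52, Ajuba 1.42, Sav1 1.38, Lats2 1.19, Wwtr1 1.06, Yap1 1.02, Vgll4 0.845 and Amotl1 0.416 CPM per kb. In Sham-WT, Amotl2 had 1.58 CPM per kb, next to Sav1 at 1.60, and Tead1 had 2.17. Reads in introns were counted, so the whole span from the GENCODE M21 annotation served as the length.

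The genes whose log2 CPM was most like that of Tead1 over the 12 sums of CM1, CM4 and CM5 in the 4 libraries were Ehbp1, Rev1 and Faf1, each at a Pearson r of 0.98 among 5914 genes. Vgll4 was most like Krit1 (0.98), Sgms1 (0.97) and Pxk (0.97), and Wwtr1 most like Prrx1 (0.90), Daam2 (0.89) and Tmed5 (0.86). Among the 10 genes, without Ajuba, which was under the minimum here, Tead1 was most like Lats2 at 0.93 and Vgll4 at 0.88. Lats2 was at place 184 and Vgll4 at place 490 of the genes most like Tead1. The r of Tead1 with Sav1 was -0.40. These sums share libraries, populations and depth, and the values are descriptions.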

How the data were processed

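Groups were taken from the sample titles. The authors deposited UMI counts per gene and nucleus, with no normalization, and 1 line per nucleus with its library, its percent of mitochondrial UMIs, a final population label and a label transferred with Seurat (version 3). Per the methods, Cell Ranger (its version is not given in the sources used here) aligned the reads to an mm10/GRCm38 pre-mRNA reference, so introns counted, doublets were removed with Scrublet, and only cardiomyocyte clusters were kept. Labels and methods name different versions of the 10x Genomics kit, and use of strand in counting is not stated. Each column of the matrix summed to its deposited UMI count in 100% of nuclei. Of the deposited columns per nucleus, 11 were not used.

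UMIs were summed per library, or per library and population, and scaled to CPM in Python 3.11.15 (numpy 2.4.6, scipy 1.17.1, pandas 2.3.3). Intervals are exact, Poisson for a level and conditional binomial for a ratio. A sum of 0 UMIs was set to a floor of 3, its ratio being a bound counted only in the direction it bounds, and no ratio was taken where both sums were at or under 3. Minimums were 50 UMIs over both libraries, 20 over both sums of populations and 5 in each sum for likeness. With 1 library per group no test was made. The ratios between libraries and their intervals were tested on Poisson counts simulated with known ratios, and the other steps were not. TMM came from edgeR 4.0.16 in R 4.3.3, and figures from matplotlib. Promoter windows are RefSeq, positions GENCODE M21, which held 98.0% of the 22574 symbols.

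The 10 genes and the lists were chosen with earlier results of these data known. Named are all 10 genes, in each other list of the pathway the 2 genes with the most UMIs and any past 1.5-fold in the comparison described, Nfe2l1, scarce markers of other cells, and the 3 genes most like each of the 3 members with the most UMIs. Others (the targets' remaining values and other values by population) were named after their values were seen. Alternatives are given in the closing section.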

Additional observations from a re-analysis of the deposited data

Results flagged for a closer look

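In 4 cases a gene had opposite ratios of the KO label over the WT label in the 2 surgeries, each with a counting interval that left out 0. The difference between the surgeries was not tested, since there was 1 library per group, and 59 genes in 5 sets of nuclei were looked through. MI over Sham ratios of the 2 genotype labels were looked through in the same way, and all 4 cases came from the genotype ratios. The share of such cases over all genes was not counted. Nfe2l1 over all nuclei had 0.22 for MI-KO over MI-WT and -0.30 for Sham-KO over Sham-WT. Sav1, the kinase scaffold, had 0.31 and -0.35 within CM1, from 186 and 163 UMIs after MI and 201 and 145 after Sham surgery. In CM4, Strn3 had -0.52 and 0.71, and Tead4 had 1.29 and -1.30 from few UMIs.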

How the results depend on the processing

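The alternatives were TMM scaling, median-of-ratios size factors, totals without the mitochondrial genome, CM1 nuclei alone, population shares fixed at their mean over the 4 libraries, nuclei thinned to 1000 UMIs, nuclei without any UMI of the lists of other cells, and no minimum above the floor. Under those that kept all nuclei, Amotl2 and Ajuba stayed the genes past 1.5-fold after MI and no gene was so between genotype labels. With thinned nuclei, 1 gene (Amotl2) was past 1.5-fold in MI-KO over Sham-KO, Ajuba being under the minimum, and in MI-WT over Sham-WT 3 were, Amotl2 (1.05), Amotl1 and, lower, Sav1 (-0.79). In CM1 alone the ratios of Amotl1 were 0.02 and -0.17. Only 12 to 89 nuclei per library had no UMI of the other cells' lists, which left Tead1 alone over the minimum, at -0.06 for MI-WT over Sham-WT, 0.54 for MI-KO over Sham-KO, 0.02 for MI-KO over MI-WT and -0.58 for Sham-KO over Sham-WT, each with an interval that held 0; the cause of the turned signs was not tested. By the transferred label, 1 gene (Ajuba) was past 1.5-fold in CM2 over CM1 and 0 in CM5; most nuclei named CM2 there carry the final label CM5, and with these names exchanged, an alternative chosen after seeing the data, the counts were 0 and 1 as reported. In CM5 over CM1, thinning left 0, and in CM4 over CM1 totals without the mitochondrial genome left 0. Between libraries, no ratio of Amotl2 or Ajuba past 1.5-fold changed sign under the alternatives that gave it a value; single ratios of genes outside the 10, and of any gene within CM4 or CM5, were not run. The targets were counted under the same alternatives, a choice made after seeing the data. For Sham-KO over Sham-WT, 1 target (Dock5, lower) was past 1.5-fold; TMM and size factors gave 1 (Ccn2, higher), totals without the mitochondrial genome 2 (Ccn2 higher, Dock5 lower), no minimum 2 (Gadd45a higher, Dock5 lower) and CM1 alone 3 (Ccn1 and Ccn2 higher, Dock5 lower). For MI-WT over Sham-WT, CM1 alone gave 7 in place of 11, all higher. No paired test was made, and the MI over Sham ratios stand separately for each genotype label. Depth limits Ajuba, and all values in CM2, most.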
